A study of Homo sapiens with 8 samples.

Results

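Peaks of m6A on noncoding RNAs were examined in Mel624, an established melanoma cell line of human origin. The members are all rows of the deposited peak lists that the authors assigned to noncoding transcripts, that is, to RefSeq isoforms without a coding sequence. They came to 597 of 18551 peaks in the shFTO list and 562 of 19072 peaks in the shNC list. The shFTO cells carried a lentiviral short hairpin RNA against FTO, an enzyme that removes m6A, and the shNC cells carried a control hairpin, and both lines were selected with puromycin. Each group had 2 replicates with an m6A-IP library and an input library each, 8 libraries in all, and 1 peak list was deposited per group. Poly(A) RNA was fragmented and immunoprecipitated with an antibody to m6A, and a peak is a stretch more frequent in IP than in input.

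The deposited value of a peak is its log2 enrichment score in each replicate, which is IP over input, each divided by the median window of the same transcript. A score is thus relative to the rest of its own RNA and says nothing of the level of that RNA, so scores are compared here as enrichment within an RNA. Read counts are not part of the lists. The sequencing depth under each score is therefore unknown, and a place outside a list may have missed the threshold or belong to an RNA too low to be read. Whether the replicates were separate cultures is not stated, so p-values cover no more than the differences among these libraries, which may be technical. All 8 melanocyte markers looked up (MITF, SOX10, TYR, TYRP1, DCT, PMEL, MLANA and MC1R) had a peak in both lists, 14 peaks in each.

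m6A is written on nascent transcripts by the METTL3 and METTL14 complex, mostly at an adenosine in a GGACU-like context, and long noncoding RNAs carry it as mRNAs do. On such RNAs the mark is known to open hairpins and to recruit nuclear and cytoplasmic reader proteins, and FTO can take it off. Noncoding transcripts have no stop codon, which is the place where m6A of mRNAs gathers. They are a mixed set, in which nuclear RNAs such as MALAT1 stand beside transcripts of pseudogenes and readthrough transcripts that share sequence with mRNAs.

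The deposited lists give the position of each GGACU in a peak. These positions were matched to GENCODE transcripts, whose 5′ end was allowed to be shifted. In this way 181 GGACU sites of 99 isoforms could be read from the hg38 genome. The sites shown are those in the strongest MALAT1 peak, in the NORAD and OIP5-AS1 peaks, in the peaks with the largest score differences (MIAT and LINC01011), and in 2 RNAs, CFAP58-AS1 and LINC00472, described further on. Each is given 5′ to 3′ on the RNA strand as DNA letters, with 10 bases on either side and GGACT, the m6A motif, in capitals.
MALAT1, strongest peak, first site: tttttgcattGGACTttgagttaag
MALAT1, same peak, next site: taaatcctgaGGACTagcattaatt
MALAT1, same peak, last site: gatgaagctaGGACTgaggagcaag
NORAD, peak near the 3′ end: gtgtatgtcaGGACTtgttcattag
OIP5-AS1, first site: gaaaaggctgGGACTcaggtacttt
OIP5-AS1, next site: tccccagttgGGACTgaactttctc
MIAT: ctcctggcctGGACTtctctttgga
LINC01011: agcaaggcatGGACTccgggaagaa
CFAP58-AS1, first site: ggagagccgaGGACTaacgcttgga
CFAP58-AS1, next site: gatgagggaaGGACTggcggctaca
LINC00472, first site: agtacatgatGGACTtcatgtagag
LINC00472, next site: agaaagcactGGACTgagttttaag
All of these lie in exons of the named lncRNA. The MALAT1 stretches are on the plus strand at chr11:65500326-65500350, chr11:65500360-65500384 and chr11:65500469-65500493 in its single exon, and the first holds a known m6A site in a MALAT1 hairpin. The NORAD stretch is at chr20:36046270-36046294 on the minus strand, and the OIP5-AS1 stretches begin at chr15:41299298-41299322 in exon 4. The MIAT stretch is at chr22:26668187-26668211 in exon 5 and the LINC01011 stretch at chr6:2988747-2988771 in exon 2, both on the plus strand. The CFAP58-AS1 stretches are at chr10:104353461-104353485 and chr10:104353411-104353435, both in exon 1 on the minus strand, and the LINC00472 stretches at chr6:71415459-71415483 and chr6:71415433-71415457 in its last exon, also on the minus strand. Of the 181 sites, 58 had A, 50 G, 54 T and 19 C just before GGACT.

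Noncoding peaks came from 389 isoforms in shFTO and 363 in shNC, 449 in either list and 303 in both. By symbol, 54 of the 449 were LINC RNAs (long intergenic noncoding RNAs), 91 were antisense RNAs, 10 were hosts of small RNAs and 294 had other names. The gene table split these others further into 132 pseudogenes, 64 lncRNAs with LOC numbers, 39 readthrough transcripts, 38 other named lncRNAs, 9 genes now typed as protein-coding, 3 ribosomal RNA entries and 9 with no annotation. Pseudogene transcripts were thus the most frequent kind, with 174 peaks in shFTO and 175 in shNC. Antisense RNAs had 108 and 100 peaks in shFTO and shNC, LINC RNAs 66 and 60, and host genes 11 and 12.

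Noncoding peaks made up 3.22% of the shFTO list and 2.95% of the shNC list, with Clopper-Pearson intervals of 2.97% to 3.48% and 2.71% to 3.20%. The intervals overlap, and like all intervals of shares here they cover counting error only, since peaks of one RNA are not independent. Isoforms held 1.53 noncoding peaks on average in shFTO and 1.55 in shNC, against 1.98 and 2.07 peaks per protein-coding isoform. A single peak was found on 259 of the isoforms in shFTO and on 240 in shNC, and 44 and 42 isoforms had 3 or more. Median scores were 2.36 and 2.33 in the shFTO replicates and 2.40 and 2.29 in the shNC replicates, below those of protein-coding peaks in each replicate (2.57 and 2.50 in shFTO, 2.58 and 2.53 in shNC). The median width was 254 nt in shFTO and 243 nt in shNC, close to the 256 and 251 nt of protein-coding peaks.

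A GGACU lay in 239 of the 597 shFTO peaks, or 40.03% (36.1% to 44.1%), and in 213 of the 562 shNC peaks, or 37.9% (33.9% to 42.1%). Protein-coding peaks held it in 38.1% in shFTO and 36.2% in shNC, within the intervals of the noncoding peaks. In peaks narrower than 200 nt it was found in 27.3% of noncoding peaks in shFTO (19.2% to 36.6%) and 27.8% in shNC (20.6% to 35.9%), against 20.2% and 18.7% of protein-coding peaks. The order was the other way in peaks over 300 nt, with 45.2% of noncoding peaks in shFTO (36.6% to 54.0%) and 40.2% in shNC (30.1% to 51.0%), against 48.0% and 46.4% of protein-coding peaks. Of the classes, LINC peaks had 45.5% in shFTO and 41.7% in shNC, and GGACU was in 45 of 108 antisense peaks in shFTO and 44 of 100 in shNC. Host gene peaks had it in 3 of 11 in shFTO and 2 of 12 in shNC, too few to set apart from the rest. None of the 4 ribosomal RNA peaks of either list held GGACU.

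Among 8 nuclear and regulatory lncRNAs looked up, 6 had listed peaks in both groups: MALAT1, NEAT1, NORAD, KCNQ1OT1, TUG1 and OIP5-AS1. NORAD, a cytoplasmic lncRNA that binds PUMILIO proteins, had the strongest, at its 5′ end (nt 72 to 721 in shFTO, 28 to 721 in shNC), with scores of 5.35 and 5.01 in shFTO and 4.94 and 5.11 in shNC. The groups overlap for this peak. That peak was 650 nt wide in shFTO and 694 nt in shNC, the widest noncoding peak of the shNC list, and held no GGACU; the GGACU printed above lies in a weak NORAD peak far downstream (1.23 and 0.93 in shFTO, 1.14 and 1.34 in shNC).

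MALAT1, an abundant RNA of nuclear speckles, had 5 peaks in each list, all in the first part of the isoform. Its strongest peak held the GGACU sites shown above and scored 4.70 and 4.51 in shFTO and 4.68 and 4.57 in shNC. These values are almost the same in both groups. At the 5′-most peak the scores were 2.17 and 1.39 in shFTO and 2.75 and 2.69 in shNC, so that both shFTO replicates were lower. The listed stretch there also differed, nt 1226 to 1689 in shFTO and 1200 to 1503 in shNC. Means of the other 3 MALAT1 peaks were lower in shFTO too, with log2 ratios of -0.48, -0.12 and -0.41, and none of the 5 passed the test given further on. NEAT1, the scaffold of paraspeckles, had 1 peak, with 3.82 and 3.56 in shFTO and 3.88 and 3.47 in shNC, which overlap.

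KCNQ1OT1, an antisense RNA that silences an imprinted cluster, scored 3.14 and 3.18 in shFTO at nt 64572 to 64810 and 2.77 and 2.76 in shNC at the same nucleotides. Both shFTO scores were higher, by a log2 ratio of 0.40 ± 0.28 (SE, limma, adjusted p = 0.94). A second KCNQ1OT1 peak, at 1.92 and 2.05, was listed in shFTO only. TUG1, whose gene is now typed as protein-coding, had 7 peaks in shFTO and 6 in shNC. Its strongest scored 3.06 and 2.96 in shFTO, where it was 1 peak at nt 2057 to 2403, and in shNC the same stretch was split into adjoining peaks of 2.74 and 2.71 and of 2.73 and 2.66. OIP5-AS1, a cytoplasmic sponge for the RNA-binding protein HuR, had a peak with both GGACU sites of 1.83 and 1.68 in shFTO and 1.48 and 1.48 in shNC, with no overlap between the groups.

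**Figure D1:**
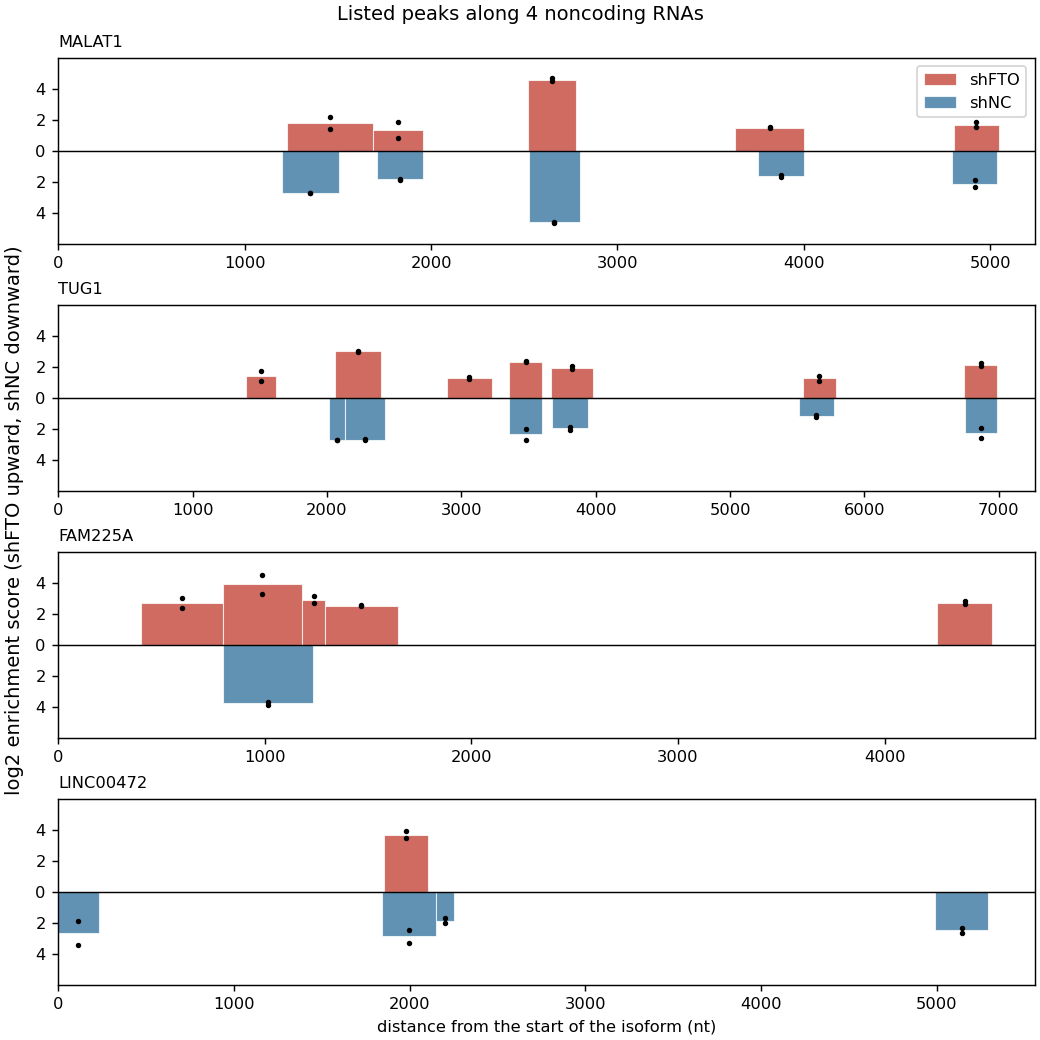
Listed peaks of MALAT1, TUG1, FAM225A and LINC00472 along their isoforms (x axis, nt from the start of the isoform, drawn to the end of the last peak), with the mean log2 enrichment score upward for shFTO and downward for shNC and the 2 replicates as points. MALAT1 shows the same 5 places in both groups, while FAM225A has 5 peaks in shFTO against 1 in shNC and LINC00472 has 1 in shFTO against 4 in shNC.

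Of 16 lncRNAs linked to melanoma, 5 had a peak in shFTO and 4 in shNC. LINC00518 scored 2.83 and 2.34 in shFTO and 2.22 and 2.82 in shNC. PVT1, which lies beside the MYC oncogene, scored 2.58 and 2.30 in shFTO and 2.89 and 2.84 in shNC at its 5′ end, so that the groups did not overlap. LINC00673 had a weak peak, of 1.45 and 1.58 in shFTO and 1.54 and 1.58 in shNC. BANCR, a lncRNA induced by mutant BRAF in melanoma, had a peak only in the shFTO list, at 1.63 and 1.40. In a list of 6 lncRNAs of the p53 and damage response, LINC-PINT alone had a peak, with 2.95 and 2.46 in shFTO and 3.13 and 2.85 in shNC, which overlap.

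Host genes of small RNAs are spliced to release snoRNAs or microRNAs from their introns, and their exons are often turned over quickly. Of the 10 RNAs with host symbols and a peak in either list, SNHG16 and MIR100HG stood highest. The class follows the symbols of the lists, and some other RNAs now bear host names. LINC00461 (now MIR9-2HG), LINC00888 (SNHG33) and LINC00969 (MIR570HG) are among them. SNHG16 scored 4.81 and 4.69 in shFTO and 4.60 and 4.39 in shNC, with no overlap between the groups and a log2 ratio of 0.26 ± 0.29 (SE, limma, adjusted p = 0.97). MIR100HG, the host of the miR-100 and let-7a-2 cluster, had a peak of 5.26 and 5.41 in shFTO and no listed peak in shNC. SNHG4 was the reverse, with 2.84 and 3.04 in shNC and no listed peak in shFTO. No peak of GAS5, ZFAS1, DANCR, DLEU2 or FTX was listed in either group.

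Some peaks of host genes began at the very start of the RNA. In shFTO, 4 of 11 began within 10 nt of the 5′ end (10.9% to 69.2%) and in shNC 4 of 12 (9.92% to 65.1%). They were those of SNHG1, SNHG15, SNHG17 and SNHG21 in both, too few RNAs to set the class apart. Over all noncoding peaks the share was 9.88% in shFTO (7.61% to 12.6%) and 8.54% in shNC (6.36% to 11.2%), and over protein-coding peaks 8.53% and 8.76%. The antibody also binds m6Am, the methylated adenosine next to the cap, which cannot be told apart from m6A in these lists. SNHG21 scored 3.54 and 2.88 in shFTO and 3.19 and 3.25 in shNC, SNHG15 2.39 and 1.91 in shFTO and 2.15 and 1.33 in shNC, and SNHG17 1.22 and 1.39 in shFTO and 1.38 and 1.05 in shNC. The groups overlap for each of these 3 hosts.

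**Figure D2:**
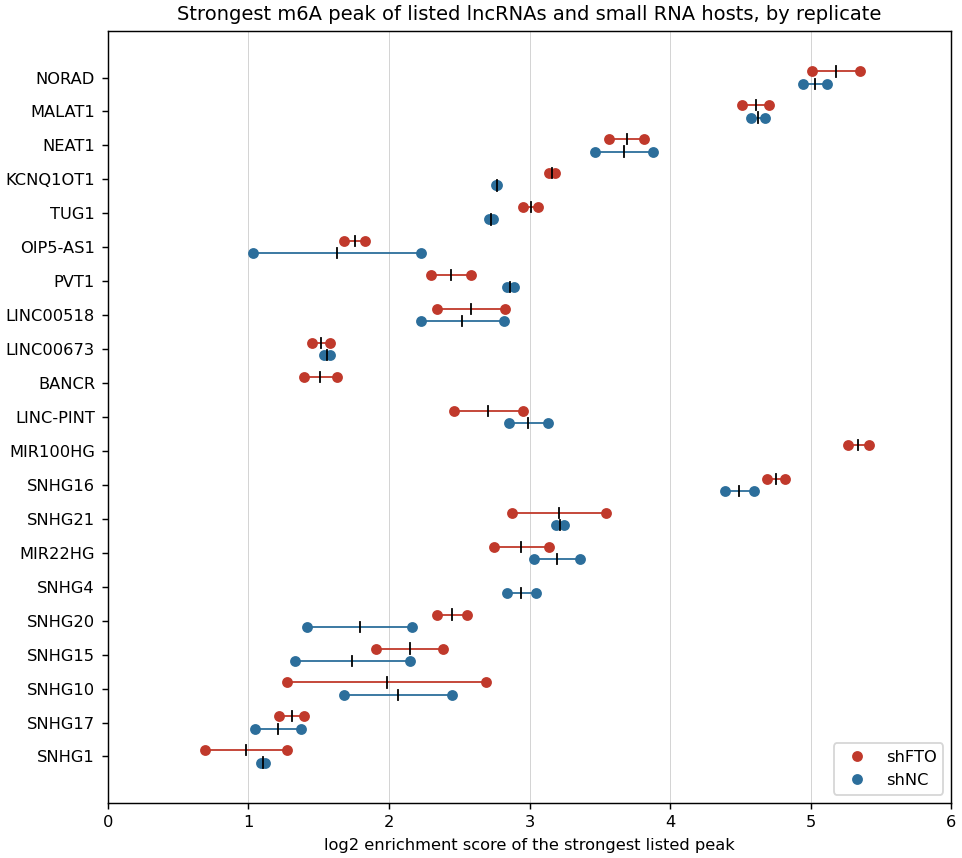
Log2 enrichment score (x axis) of the strongest listed peak of each named lncRNA and small RNA host, with shFTO above shNC, 1 point per replicate, a line joining the 2 replicates and a black tick at their mean. NORAD and MALAT1 stand near 5 in both groups, and MIR100HG and BANCR have points for shFTO only, SNHG4 for shNC only.

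Antisense RNAs are transcribed from the strand opposite a protein-coding gene, and many share its promoter region. Several had scores among the highest of all noncoding RNAs. FGD5-AS1 reached 5.48 and 5.47 in shFTO and 4.93 and 5.54 in shNC at its first peak, and 5.03 and 5.08 in shFTO against 4.55 and 5.19 in shNC at its second. CARD8-AS1, opposite the inflammasome gene CARD8, scored 5.28 and 5.23 in shFTO and 4.18 and 5.54 in shNC. CFAP58-AS1, now named CFAP58-DT as a divergent transcript, had a peak at the very 5′ end with the GGACU sites printed above, of 6.15 and 5.02 in shFTO and 5.24 and 5.89 in shNC. For each of these RNAs the groups overlap, and for CARD8-AS1 and CFAP58-AS1 the replicates of a group lie far apart. NNT-AS1, opposite the mitochondrial transhydrogenase gene NNT, scored 5.23 and 4.63 in shFTO and 4.32 and 4.68 in shNC.

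The sense partner could be found for 76 of the 80 antisense RNAs in shFTO and for 69 of 72 in shNC. It had a peak of its own in 53 (69.7%) and 48 (69.6%) of these cases, against 45.1% and 44.4% of the 20052 protein-coding genes of the table. Whether the sense genes are more often expressed than the average gene was not tested. The libraries were made with a stranded kit and aligned as such, but whether reads were counted by strand in the windows is not stated, so reads of a sense gene over the same bases cannot be told apart here. CARD8, NNT and WAC had peaks in both lists, and FGD5 in neither.

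LINC RNAs varied both in the number and in the strength of their peaks. LINC01000, with 8 peaks in shFTO and 7 in shNC, and ERVK13-1, a retroviral transcript with 7 in shFTO and 8 in shNC, had the most peaks of all noncoding RNAs. The LINC01000 scores stayed between 1.10 and 2.62 in shFTO and between 1.20 and 2.52 in shNC. LINC01011 had the highest LINC score in shFTO, with 4.12 and 5.47 in shFTO and 3.25 and 3.48 in shNC. LINC00472 had 1 peak in shFTO, with 3.48 and 3.91, and 4 in shNC, of which the overlapping peak scored 2.45 and 3.27. The other LINC00472 peaks of shNC reached 3.46 and 1.89 at the 5′ end, 2.02 and 1.69 beside the shared peak, and 2.68 and 2.31 far downstream. LINC01516 was listed in shFTO only, at 4.17 and 3.89. The symbols LINC01420, LINC00998 and LINC00094 now belong to genes typed as protein-coding, so that the class is not purely noncoding.

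Changes in the number of peaks went both ways. FAM225A, a lncRNA on chromosome 9, had 5 peaks in shFTO and 1 in shNC. In shFTO, adjoining peaks of 3.30 and 4.54 and of 2.71 and 3.15 overlapped the single shNC peak of 3.88 and 3.67, and the other 3 shFTO peaks had scores between 2.41 and 3.03. UBA6-AS1 had 2 peaks in shFTO and 5 in shNC, and BOLA3-AS1 1 in shFTO and 4 in shNC. Some of these are adjoining pieces of a longer enriched stretch, as at UBA6-AS1, where 4 of the shNC peaks follow one another between nt 35 and 787.

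Pseudogene transcripts had median scores of 2.53 and 2.39 in the shFTO replicates and 2.61 and 2.45 in the shNC replicates. EBLN3, derived from an ancient bornavirus insertion, was the highest in shFTO, with 5.72 and 5.46 in shFTO and 4.17 and 5.0 in shNC, and had 4 peaks in shFTO and 3 in shNC. A parent gene could be named from the symbol for 58 of 112 pseudogenes in shFTO and 57 of 114 in shNC. The parent had peaks for 50 (86.2%) and 48 (84.2%) of these pseudogenes, against 45.1% and 44.4% of all protein-coding genes. A parent of several pseudogenes, such as SMG1 or PMS2, was counted for each of them. Whether parents are more often expressed than the average gene was not tested. Alignment kept each read at 1 place only, and how reads of a parent or of near-identical copies were counted among them is not stated. Single pseudogene values are uncertain for that reason. GTF2IP1 and GTF2IP4, copies of the transcription factor gene GTF2I, had identical scores of 4.03 and 3.41 in shFTO, against 4.81 and 4.85 for GTF2IP1 and 4.81 and 4.82 for GTF2IP4 in shNC. SLX1A-SULT1A3 and SLX1B-SULT1A4 were likewise identical to each other in both lists. Such scores, equal to 4 decimals in both replicates, were found for 8 noncoding peaks in shFTO and 2 in shNC. How copies at separate places came to have equal scores was not tested.

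Readthrough transcripts join neighbouring genes, and their bases are those of the component mRNAs. They had the lowest medians of the larger classes, 2.01 and 2.01 in the shFTO replicates and 2.14 and 2.06 in the shNC replicates. CHKB-CPT1B stood far above this, with 5.46 and 5.74 in shFTO and 5.57 and 4.91 in shNC. Component genes were found in the table for 34 of the 38 readthrough isoforms in shFTO and 33 of 37 in shNC. At least 1 component had peaks of its own in 33 (97.1%) and 31 (93.9%) of them. Of all protein-coding genes 45.1% and 44.4% had peaks. That share counts single genes, while here a peak on any component was enough, so the shares are not like for like. Reads from the component mRNAs and from the readthrough RNA cannot be told apart in these lists.

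Although the RNA was poly(A)-selected, ribosomal RNA appeared in both lists. The mature 18S RNA had 1 peak at nt 1595 to 1833, near its 3′ end, of 4.62 and 4.64 in shFTO and 4.77 and 4.54 in shNC. The 28S RNA had 1 at nt 4045 to 4320 in shFTO and 4044 to 4316 in shNC, of 2.22 and 2.14 in shFTO and 2.48 and 2.19 in shNC. Both peaks recurred on the 45S precursor, shifted by 3654 and 7920 nt at both edges, and so represent the same sequence listed again. The m6A of 18S and 28S RNA is written by METTL5 and ZCCHC4 outside the GGACU context, and the groups overlap for both peaks.

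A peak without a partner is one with no overlapping peak on the same isoform in the other list. In shFTO 165 of the 597 noncoding peaks had none, or 27.6% (24.1% to 31.4%), and in shNC 117 of 562, or 20.8% (17.5% to 24.4%). Protein-coding peaks lacked a partner in 13.8% in shFTO (13.3% to 14.3%) and 14.4% in shNC (13.9% to 14.9%), below the noncoding intervals of both groups. Lower scores went with a missing partner in both kinds of RNA, and the difference was also seen among peaks of like score. Of peaks with a mean score of 3 or more, 12.4% of the noncoding lacked a partner in shFTO (7.64% to 18.7%) and 10.7% in shNC (6.26% to 16.9%), against 5.61% and 5.52% of the protein-coding. Below a score of 2 the shares were 37.6% (31.0% to 44.4%) against 23.5% in shFTO, and 27.7% (21.4% to 34.6%) against 25.5% in shNC, where the noncoding interval spans the protein-coding value. As there is 1 list per group, these shares have no replicate check and were compared by their counting intervals only.

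By class, LOC-numbered lncRNAs lacked a partner in 42.0% of peaks in shFTO (30.2% to 54.5%) and 28.1% in shNC, LINC RNAs in 33.3% and 26.7%, and antisense RNAs in 31.5% and 24.0%. Pseudogenes had 21.8% in shFTO and 18.3% in shNC, and readthrough transcripts 23.2% and 17.9%. The intervals of shFTO and shNC overlap in each of these classes. Of the 165 shFTO peaks without a partner, 101 were on isoforms with no peak at all in shNC, and of the 117 in shNC, 64 were on isoforms with none in shFTO.

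**Figure D3:**
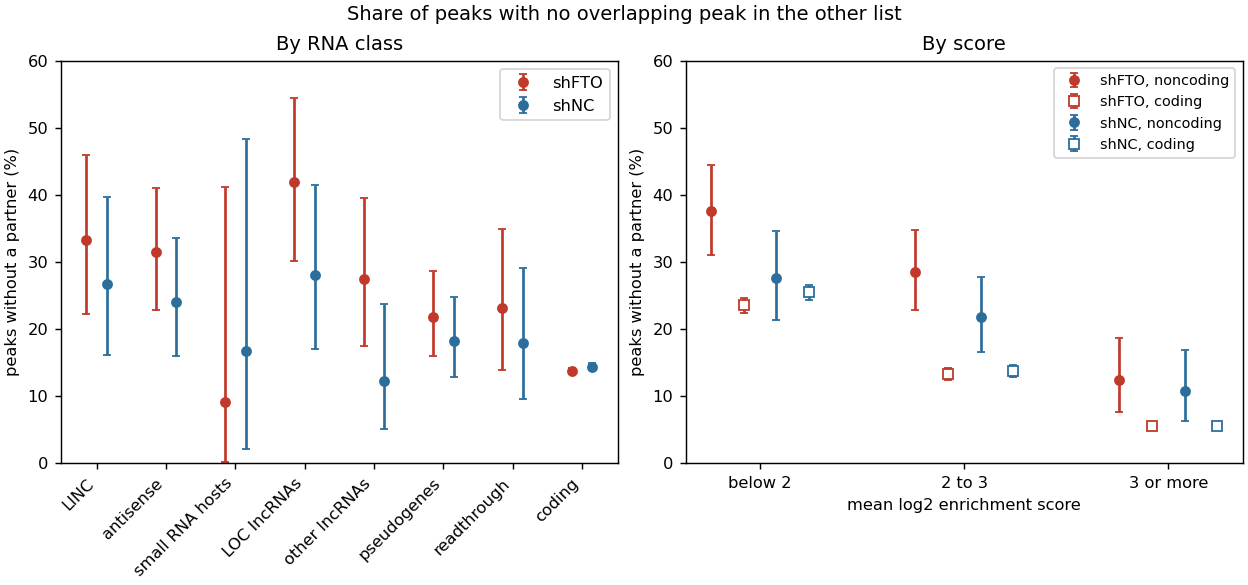
Share of peaks without a partner (y axis, %), by RNA class on the left and by mean log2 enrichment score on the right, with shFTO in red and shNC in blue, filled points for noncoding and open points for protein-coding peaks on the right, and bars for the 95% Clopper-Pearson interval. Noncoding peaks of score 2 to 3 lacked a partner in 28.6% in shFTO and 21.8% in shNC, against 13.2% and 13.7% of protein-coding peaks.

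In all, 86 isoforms had peaks in shFTO only and 60 in shNC only, with a median best score of 2.26 and 2.19. After MIR100HG, the highest in shFTO only were CRYM-AS1, whose gene is now typed as a pseudogene (mean 4.32), LINC01516 and IDI2-AS1 (3.67 and 4.23). The highest in shNC only were the pseudogenes FAM45BP (4.31 and 4.32) and SEPT7P2 (3.75 and 4.57), and among RNAs with antisense symbols STK4-AS1, now named as a divergent transcript (3.60 and 3.52), PSMD5-AS1, now typed as a pseudogene (3.82 and 3.29), and LEF1-AS1 (2.95 and 3.49), opposite the Wnt pathway factor LEF1. Most others had lower scores, down to 0.99 in shFTO and 0.98 in shNC. Without read counts, an absent peak cannot be told apart from an RNA that was too low to be read in that group.

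Scores were then compared where each peak overlapped exactly 1 peak of the other list, which gave 340 noncoding pairs on 259 isoforms among 12117 pairs in all. The log2 ratio, shFTO over shNC, had a median of 0.0075 over the noncoding pairs (SD over pairs 0.41), against -0.013 (SD 0.40) over all pairs, and 84.1% of the noncoding pairs lay within 0.5 of 0. Between single shFTO and shNC libraries the median difference ran from -0.039 to 0.086, so its sign depended on which libraries were compared. No noncoding pair passed an adjusted p of 0.05 in limma, and 0% of all pairs did. At an unadjusted p of 0.05, 12 noncoding pairs were higher and 15 lower in shFTO, 3.53% and 4.41% of 340, against 2.3% and 3.68% of all pairs tested. Both shFTO scores lay above both shNC scores in 63 pairs (18.5%) and below them in 52 (15.3%), against 15.7% and 17.7% of all pairs. These shares are near those of all pairs.

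**Figure D4:**
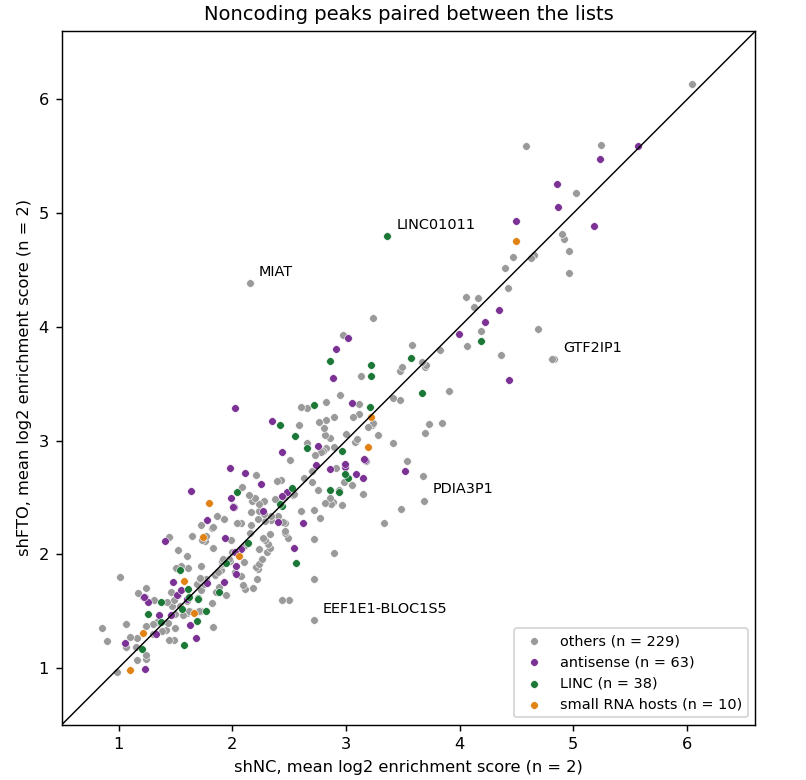
Mean log2 enrichment score of the 340 noncoding peak pairs in shFTO (y axis) and shNC (x axis), each the mean of 2 replicates, coloured by RNA class, with the line of equal scores. Points lie along the line from about 1 to 6, and MIAT (4.39 in shFTO, 2.16 in shNC) and LINC01011 lie farthest above it.

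Among pairs overlapping by at least 1 nt, the largest difference was at MIAT, a nuclear lncRNA first linked to myocardial infarction. Its peak at nt 1896 to 2340 scored 5.27 and 3.50 in shFTO, and its peak at nt 1961 to 2146 scored 2.47 and 1.84 in shNC. Both shFTO scores were higher, but they lay far apart, and the log2 ratio was 2.23 ± 0.53 (SE) with an adjusted p of 0.58 in limma. The wider shFTO peak took in the GGACU printed above, which the shNC peak did not. With 50% reciprocal overlap or centres within 50 nt these peaks no longer paired, and LINC01011 had the largest ratio. The ratio was 1.35 without shFTO replicate 1. Without shFTO replicate 2, the lower of the shFTO scores, it was 3.11 with a limma adjusted p of 0.0030, the only noncoding call under the alternatives tried; that fit takes the spread from the shNC libraries and assumes it for the lone shFTO library. A second MIAT peak, of 2.84 and 3.01, was listed in shNC only, in a stretch that the gene MIATNB also covers.

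LINC01011 followed, with a log2 ratio of 1.43 ± 0.43 (SE, limma, adjusted p = 0.67), again with shFTO replicates far apart. EBLN3 at its strongest peak had a ratio of 1.0, and AHCTF1P1, TFAP2A-AS1, RAB30-AS1, USP27X-AS1, NBPF25P and LINC00472 had ratios from 0.84 to 0.96. Several of these rest on 1 library. Without shFTO replicate 1 TFAP2A-AS1 had 0.17 and AHCTF1P1 0.59, without shFTO replicate 2 LINC01011 had 0.76 and NBPF25P 0.55, and without shNC replicate 1 EBLN3 had 0.59 and LINC00472 0.42. For RAB30-AS1 the groups overlapped, as shNC replicates of 1.87 and 3.95 lay on either side of the shFTO replicate at 3.64, and without shNC replicate 1 the sign turned.

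At the other end, EEF1E1-BLOC1S5, a readthrough of a tRNA synthetase complex gene and a lysosome-related organelle gene, scored 1.90 and 0.94 in shFTO and 2.93 and 2.50 in shNC, a log2 ratio of -1.30 ± 0.38 (SE, limma, adjusted p = 0.66). PDIA3P1 followed at -1.22, with 2.39 and 2.55 in shFTO and 4.62 and 2.75 in shNC, and this value rests on shNC replicate 1. The GTF2IP1 and GTF2IP4 ratios of -1.11 and -1.10 come from near-identical copies with equal shFTO scores and are not independent. LOC642846 (-1.09), EP400NL (-1.06), CLUHP3 (-0.99), the 5′-most MALAT1 peak (-0.94 ± 0.34, SE), WAC-AS1 (-0.90) and FRG1BP (-0.90) completed the 10 smallest, whose limma adjusted p-values ran from 0.66 to 0.83. Without shFTO replicate 2 the ratio of EEF1E1-BLOC1S5 was -0.82 and that of MALAT1 -0.55. Without shNC replicate 1 PDIA3P1 had -0.28 and FRG1BP -0.40, and without shNC replicate 2 EP400NL had -0.52. In all of these 10 both shFTO scores were below both shNC scores, as in 17.7% of all pairs tested. The 10 were picked for their low ratios, so this order follows largely from the choice.

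**Figure D5:**
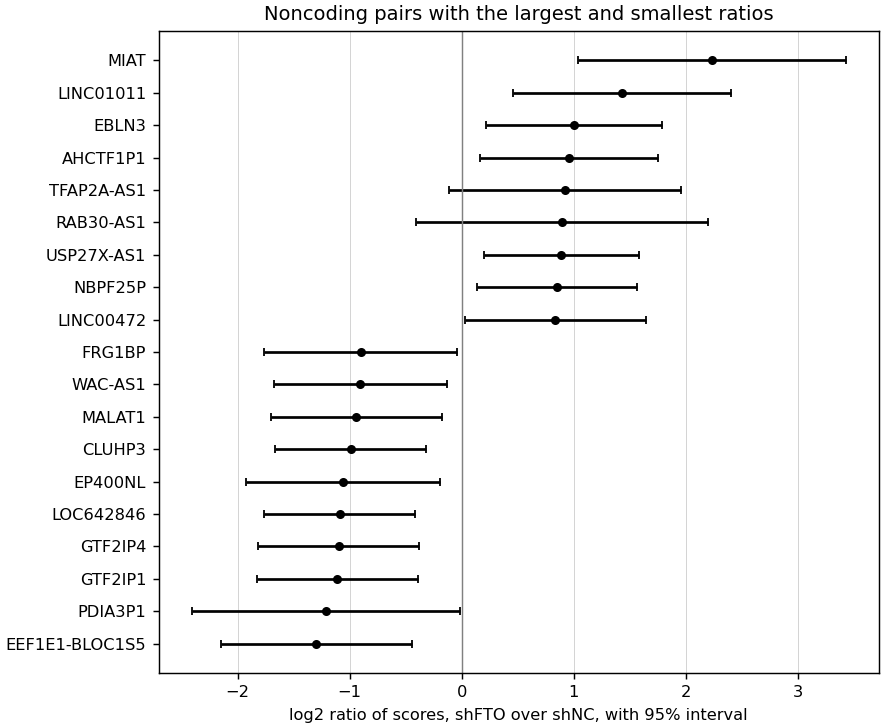
Log2 ratio of enrichment scores, shFTO over shNC (x axis), of the noncoding pairs at either end of the range, 9 of the 10 with the highest ratios and 10 with the lowest, with the 95% interval of the limma fit as bars. The pairs were picked for their ratios, and none passed the adjusted test over all 12117 pairs.

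Split by class, the medians of the log2 ratio were -0.0034 over 38 LINC pairs, 0.069 over 63 antisense pairs, 0.043 over 10 host gene pairs, 0.026 over 99 pseudogene pairs, -0.027 over 43 readthrough pairs and -0.036 over 29 LOC pairs. The SD over pairs ran from 0.29 for host genes to 0.44 for pseudogenes, so each median was small beside the spread of its pairs. No test was run on these medians. At the unadjusted threshold 5 of the 99 pseudogene pairs were higher and 8 lower (5.05% and 8.08%), and 4 and 2 of the 63 antisense pairs (6.35% and 3.17%), against 2.3% and 3.68% of all pairs. The 8 lower pseudogene pairs include both GTF2I copies, and the counts are too small to set a class apart. The correlation of scores over the 340 pairs was 0.87 between the shFTO replicates and 0.86 between the shNC replicates, and from 0.83 to 0.88 between single libraries of different groups, where shFTO replicate 1 and shNC replicate 2 had the highest and the other pairs 0.83 to 0.85.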

How the data were processed

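Adapters were removed by the authors with cutadapt, and reads were aligned to hg38 with TopHat2 version 2.0.14, placed on the longest RefSeq isoform and scored in windows of 100 nt moved by 10 nt, keeping windows past a Fisher exact test with FDR and a log2 score of 1 or more. The deposited log2 scores per replicate, relative to the median window of the isoform, were used unchanged. A replicate score below 1 was nevertheless listed for 24 noncoding peaks in shFTO and 19 in shNC. The sources used here do not give how replicates were merged into a list.

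Peaks overlapping by at least 1 nt were partners. Pairs with 1 partner on each side were tested with limma 3.58.1 (R 4.3.3; lmFit, eBayes) on group alone, with Benjamini-Hochberg adjustment over all 12117 pairs. The script was tested on simulated data. With 2 replicates against 2, an exact permutation test of a single pair cannot go below p = 0.33. Shares carry Clopper-Pearson intervals at 95%. RNA classes came from symbols, descriptions and RefSeq gene records of GRCh38, which held 438 of the 449 isoforms.

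GGACU sites were read from hg38 where all matching GENCODE version 44 transcripts gave 1 place, for 102 of 223 isoforms. Of these, 99 gave a stretch within an exon outside the chromosomes left out here. Shifts of the 5′ end up to 400 nt were tried, and up to 100 nt for isoforms with 1 GGACU. Among the printed sites the shift was 122 nt for MALAT1, -51 nt for LINC00472 and -37 nt for MIAT. NORAD was placed by 1 GGACU with a shift of 58 nt, so its place is less certain. Named RNAs were the listed lncRNAs, the 10 highest scores per group, the 10 largest and 10 smallest ratios, the highest in 1 list only, and RNAs with the most peaks or GGACU, of which not all are printed, and a few items are not reported here; FAM225A, UBA6-AS1 and BOLA3-AS1 were added for their counts. Members and lists were chosen with earlier results of these data known. Alternatives were other overlap rules, a score of at least 2, centring, a replicate block, an eBayes trend, 1 pair per gene and leaving out replicates. Summaries and figures were made with pandas 2.3.3, numpy 2.4.6, scipy 1.17.1 and matplotlib 3.10.9 under Python 3.11.15.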

Additional observations from a re-analysis of the deposited data

How the results depend on the processing

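The count of noncoding pairs past an adjusted p of 0.05 stayed at 0 under every alternative except without shFTO replicate 2, where MIAT passed (range 0 to 1 over the 4 fits that leave out a library). At an unadjusted p of 0.05, leaving out a library gave 6 to 14 higher and 7 to 17 lower pairs. Only pairs with a mean score of at least 2 gave 9 lower. With the replicate number as a block, 9 were lower and 9 higher. The deviations of same-numbered replicates had a weak negative correlation (r = -0.16 over noncoding pairs, -0.27 over all). Whether same-numbered libraries were prepared together is not stated. The crossed pairing, chosen after seeing the data, gave 17 higher and 16 lower and no noncoding call. The median log2 ratio ranged from -0.026 to 0.078 without single libraries. RAB30-AS1 turned to -0.15 without shNC replicate 1 (highest 1.93, without shNC replicate 2), and the other 19 pairs at either end kept their sign under each alternative in which their peaks still paired; MIAT and EP400NL did not pair under the other overlap rules.

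The share without a partner was 32.8% in shFTO and 28.6% in shNC with 50% reciprocal overlap, and 38.0% and 34.2% with centres within 50 nt. For scores of at least 2 it was 22.1% and 17.4%. Without pseudogenes, readthrough and ribosomal RNA, chosen after seeing the data, it was 31.7% in shFTO. In shNC too, pseudogenes (18.3%) and readthrough (17.9%) were below the 20.8% of all noncoding peaks. GGACU lay within 50 nt of the centre in 18.8% and 21.5% of shFTO and shNC peaks. The median score was 2.13 and 2.14 with the lower replicate, 2.53 and 2.58 with 1 peak per gene, and 2.33 to 2.36 in shFTO and 2.29 to 2.40 in shNC by single replicate. Joining abutting peaks gave median widths of 260 and 247 nt. The causes were not tested. Depth is unknown, so how far it limits weak peaks cannot be given.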
